A study of Mus musculus with 2 samples.

Results

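Chromatin at 10 genes of the Notch pathway was read from DNase-seq of newborn mouse cortex. The genes are the receptors Notch1, Notch2 and Notch3, the ligands Dll1, Dll3, Jag1 and Jag2, the DNA-binding factor Rbpj and the target genes Hes1 and Hes5. They were chosen by name, as 10 of the 21938 protein-coding genes of the annotation (GENCODE M21, mm10), each taken with its gene body plus 50 kb either side. The tissue was the left cerebral cortex, taken at an age of 4 days from females of the strain B6CASTF1/J, an F1 hybrid. There was 1 group of 2 libraries, replicate 1 and replicate 2. The labels give them separate animal numbers and a donor entry that stands for the strain, and name no treatment or engineered allele. The tissue was whole cortex, so fewer open cells and less cutting per cell cannot be told apart. No condition was varied, and the comparisons are between genes, between roles in the pathway and between the libraries.

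Notch signalling passes between touching cells. A ligand of the Delta or Jagged family on a cell binds a Notch receptor on its neighbour, a sheddase and then gamma-secretase cut the receptor, and the freed intracellular domain joins RBPJ and a Mastermind coactivator on DNA and switches on target genes such as Hes1 and Hes5. In the developing cortex these HES repressors hold radial glia, the neural stem cells, in an undifferentiated state, while cells that become neurons show Delta ligands to their neighbours. Later in development the pathway also acts in gliogenesis and in blood vessels.

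DNase I cuts DNA where chromatin is open, and a region cut above its surroundings is a DNase I hypersensitive site (DHS). The authors' stricter list held 59355 calls in replicate 1 and 46566 in replicate 2, and their lenient list 92872 and 81087. Calls of both libraries that overlapped by 1 bp or more were joined into 26012 shared DHSs, of which 11428 were distal, that is, more than 1 kb from every protein-coding transcription start site (TSS). The strength of a call is the authors' signal value, whose scaling is not stated. Values of the libraries are therefore given side by side, and each is ranked only within its own library, as a percentile among all genes with a promoter call there. The median promoter signal value over all genes was 1.56 in replicate 1, with quartiles of 1.1 and 2.08, and 4.09 in replicate 2, with quartiles of 2.17 and 6.63. Of the fixed marker lists, 4 of 9 cortical genes had a shared promoter DHS, with calls for 4 in replicate 1 and for all 9 in replicate 2. The count was 4 of 6 for radial glia, 2 of 7 for endothelium, 1 of 6 for mural cells, 0 of 5 for microglia, 1 of 4 for ependyma and choroid plexus, and 0 of 5 for hindbrain. Over all protein-coding genes, 55.7% had a shared promoter DHS, 57% a promoter call in replicate 1 and 60.2% one in replicate 2. The cortical list, at 44.4%, lay under the shared share, and only the radial glia list, at 66.7%, lay above it.

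The sequences upstream of 4 start sites are shown because they hold the pathway's own motif or proneural motifs, which are set beside the calls and footprints further on. RBPJ binds DNA through the core TGGGAA, which reads TTCCCA on the other strand, and proneural factors of the bHLH family bind the E-boxes CAGATG and CAGCTG. Each sequence below is the 250 bases before the TSS, 5′ to 3′ on the gene's strand, from the RefSeq genome GRCm38 (mm10). That genome is of a single strain and the animals were hybrids, so here and below a match may not hold on both alleles. Capitals mark the RBPJ core at Hes1 (chr16:30065090-30065339, plus strand), Hes5 (chr4:154960673-154960922, plus strand) and Rbpj (chr5:53589964-53590213, plus strand), and the proneural E-boxes at Dll3 (chr7:28302239-28302488, minus strand).
Hes1: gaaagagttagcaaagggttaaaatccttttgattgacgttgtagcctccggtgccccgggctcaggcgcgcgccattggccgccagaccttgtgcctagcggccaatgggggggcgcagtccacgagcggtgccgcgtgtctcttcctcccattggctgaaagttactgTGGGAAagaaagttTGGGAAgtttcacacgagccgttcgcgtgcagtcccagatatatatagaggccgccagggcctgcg
Hes5: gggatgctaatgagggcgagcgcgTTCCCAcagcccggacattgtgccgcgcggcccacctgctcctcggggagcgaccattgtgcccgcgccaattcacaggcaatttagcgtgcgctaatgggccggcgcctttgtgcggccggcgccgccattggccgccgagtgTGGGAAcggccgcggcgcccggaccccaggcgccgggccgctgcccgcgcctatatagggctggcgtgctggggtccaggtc
Rbpj: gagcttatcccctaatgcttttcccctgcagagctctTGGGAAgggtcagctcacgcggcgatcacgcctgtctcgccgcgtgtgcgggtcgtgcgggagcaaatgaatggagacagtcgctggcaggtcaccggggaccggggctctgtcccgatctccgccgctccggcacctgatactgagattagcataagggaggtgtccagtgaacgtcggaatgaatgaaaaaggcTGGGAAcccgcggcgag
Dll3: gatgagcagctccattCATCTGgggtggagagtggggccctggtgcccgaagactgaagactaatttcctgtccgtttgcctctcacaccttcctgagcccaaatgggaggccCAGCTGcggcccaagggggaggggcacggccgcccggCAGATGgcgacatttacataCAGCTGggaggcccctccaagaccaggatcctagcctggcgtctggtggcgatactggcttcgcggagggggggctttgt

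Of the 10 genes, 9 had a shared promoter DHS within 1 kb of a TSS in the stricter list, against 55.7% of all protein-coding genes (exact 95% binomial interval 55 to 56.4%, counting error only). Replicate 1 had a promoter call for 9 of them, against 57% of all genes, and replicate 2 for all 10, against 60.2%. In the lenient list all 10 had a shared promoter DHS, against 61.5%. Most of these promoters are rich in CpG. Among genes whose observed to expected CpG ratio within 500 bp of the TSS was at least 0.6, 90.4% had a shared promoter DHS. There were 9 CpG-rich members, and 8 of them had one, which is close to that share. Dll3, with a ratio of 0.454, was the CpG-poor member, and it had a shared promoter DHS as did 20.1% of CpG-poor genes. A shared DHS lay over the TSS base itself in 6 of the 10 genes, against 48.7% of all genes. It lay beside the start site in Notch3, Dll3 and Jag1. Among all genes with any shared promoter DHS, 26.3% had 2 or more of them, and 5 members did: Notch2, Jag1, Jag2, Rbpj and Hes1.

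The signal values of these promoters were mostly under the median of genes with a promoter call. The value of 7 members lay under the all-gene median in both libraries, and that of 2 members, Notch2 and Rbpj, above it in both. The median percentile of the members was 33.4 in replicate 1 and 30.6 in replicate 2.

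**Figure D1:**
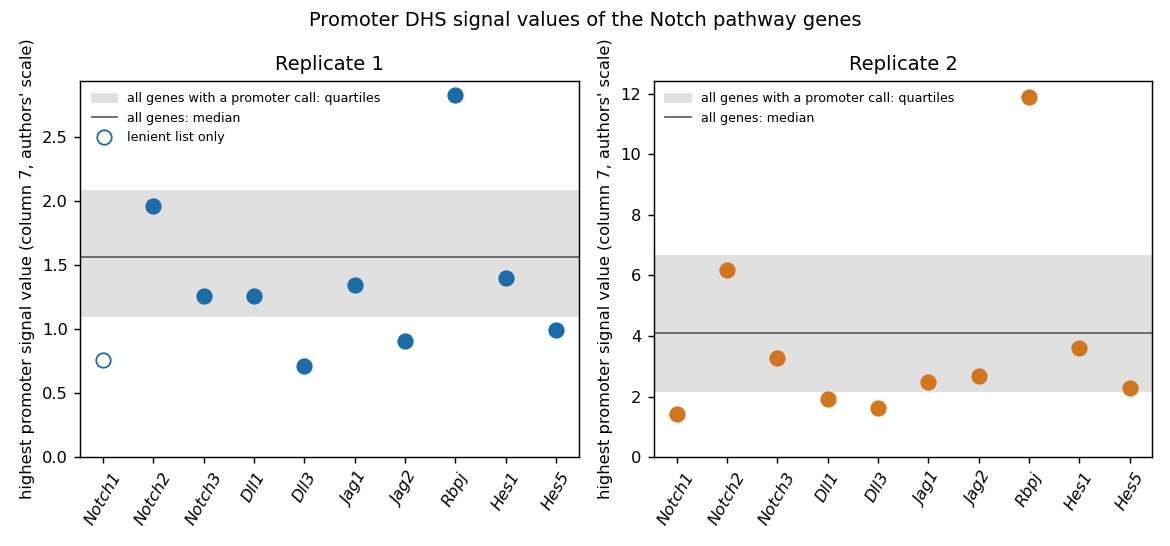
Highest promoter signal value of each gene (vertical axis, authors' scale, a separate linear axis for each library), with receptors first, then ligands, the DNA-binding factor and targets. Each point is 1 library, the grey band spans the quartiles and the line marks the median over all genes with a promoter call (1.56 and 4.09). Rbpj lies above the band in both panels, and the open circle of Notch1 is its lenient call of 0.761.

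Among the receptors, Notch2 had the strongest promoter (chr3:98013527-98150361, plus strand). Its signal value was 1.96 in replicate 1 and 6.19 in replicate 2, at percentiles 69.9 and 71.3. The DHS ran from -237 to 82 bp around the TSS (positions count from 0 at the TSS base, on the gene's strand) and held 5 footprints in replicate 1 and 6 in replicate 2. Footprints are short protected intervals that the authors called inside cut regions, where a bound protein can shield the DNA. A weaker DHS from 223 to 610 bp, in coding sequence, had values of 0.906 and 0.874.

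Notch1 (chr2:26457903-26516663, minus strand), the main receptor of cortical radial glia, was the member without a shared promoter DHS in the stricter list. Replicate 2 had a call of 1.43 over the TSS, from -72 to 96 bp, at percentile 13.6, and replicate 1 had no call there. The lenient list of replicate 1 held a call of 0.761 from -38 to 21 bp. The lowest false discovery rate of the cut rate within 1 kb of the TSS was 0.011 in replicate 1 and 6.4e-05 in replicate 2, and a stricter call always held a base under 0.001. A footprint from -37 to -27 bp in replicate 1 and one from -39 to -27 bp in replicate 2 lay over nearly the same bases and overlapped a GC box (GGGCGG, the core bound by SP factors) that runs from -31 to -26 bp. The Notch1 promoter was thus seen in both libraries, but in replicate 1 in the lenient list alone.

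At Notch3 (chr17:32120820-32166852, minus strand), a receptor best known from vascular smooth muscle and pericytes, the shared promoter DHS was not at the start site. It lay in an intron, from 652 to 1067 bp downstream, with values of 1.26 and 3.26 at percentiles 33.4 and 40. Over the TSS only replicate 2 had a call, of 1.48 from -123 to 113 bp. Of the 6 mural markers, 5 (Pdgfrb, Rgs5, Cspg4, Acta2 and Abcc9) had no promoter call in either library, and Kcnj8 had values of 0.537 and 0.835. The part of mural cells in the Notch3 values was not tested.

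All 4 ligands had a shared promoter DHS, and all 4 had values under the all-gene median in both libraries. Their values ranged from 0.71 to 1.34 in replicate 1 and from 1.62 to 2.69 in replicate 2, with medians of 1.08 and 2.19. The receptors with a call had medians of 1.61 (2 genes) and 3.26 (3 genes), and the targets had medians of 1.19 and 2.95. The ranges of receptors, ligands and targets overlapped in both libraries, and Rbpj, the single gene of its role, lay above all of them. With 1 to 4 genes in a role, the roles were not tested against each other.

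Dll1 (chr17:15367354-15376872, minus strand), the Delta ligand of neuronal progenitors, had the broadest open promoter of the 10 by cut rate in replicate 1 and a low signal value. Its values were 1.26 and 1.91, at percentiles 33.4 and 21.1. The shared DHS spanned 1400 bp, from -984 to 415 bp, and overlapped an exon of the lincRNA A930024N18Rik. Within 1 kb of the TSS, 2001 of 2001 bases in replicate 1 and 1691 in replicate 2 had a false discovery rate under 0.05, at percentiles 99.2 and 95.1 of all genes. The width did not come from a single interval in both libraries: replicate 1 had 3 overlapping calls in it, and replicate 2 had separate calls from -483 to -185 bp and from 16 to 315 bp.

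Dll3 (chr7:28293553-28302238, minus strand), a divergent Delta ligand that does not activate Notch in neighbouring cells, had the lowest promoter percentiles of any member called in both libraries. Its values were 0.71 and 1.62, at percentiles 7.51 and 16.5. The DHS ended just upstream of the TSS, from -246 to -3 bp, and the call of replicate 1 covered a narrow stretch of it, from -163 to -82 bp. In the Dll3 sequence above, a CAGCTG from -137 to -132 bp and a CAGATG from -100 to -95 bp lay inside the calls of both libraries. Both overlapped a footprint of replicate 2 and none of replicate 1. The single footprint of replicate 1, from -155 to -149 bp, overlapped none of the 3 of replicate 2. Dll3 was the only member with CAGATG in the 300 bases around a TSS (250 bases before it and 50 from it on), and this was 1 of the members' 14 such windows, against 14.3% of 41493 over all genes. CAGCTG was in 2 of the 14, at Dll3 and Jag1, against 15.5%.

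At Jag1 (chr2:137081456-137116644, minus strand), a Jagged ligand, both shared promoter DHSs lay upstream, from -536 to -37 bp and from -1016 to -557 bp, and none covered the TSS. The farther one had the higher values, 1.34 and 2.47, against 1.01 and 1.75 for the nearer one. It also held 7 footprints in replicate 1 and 5 in replicate 2, and 4 of the former were common to both libraries. Jag2 (chr12:112907819-112929776, minus strand), the other Jagged ligand, had 3 shared promoter DHSs. The DHS over the TSS, from -344 to 95 bp, had values of 0.906 and 2.69, one in coding sequence from 612 to 971 bp had 0.897 and 1.99, and one from -599 to -405 bp had 0.841 and 1.58. In replicate 1 the 3 were nearly level, and in replicate 2 the one over the TSS was highest.

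Rbpj (chr5:53466152-53657362, plus strand) encodes the factor through which every Notch receptor acts on DNA, and its promoter had the highest values of the 10 genes in both libraries. The annotation gives it 5 start sites, and positions here are from the first of the main cluster, at base 53590214. The DHS from -33 to 506 bp had values of 2.83 and 11.9, at percentiles 94 and 96.7. A further DHS from -1013 to -634 bp had 2.42 and 9.61, and a weak one from 727 to 1074 bp had 0.593 and 1.06. Within 1 kb of the start sites, 1843 and 2001 bases per 2001 had a false discovery rate under 0.05 at the best covered site, at percentiles 97.8 and 99. The Rbpj promoter was thus both strong and broad, whereas that of Dll1 was broad and weak.

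The target genes encode HES repressors of the bHLH family. Hes1 (chr16:30064384-30067796, plus strand) had a DHS over the TSS, from -219 to 34 bp, with values of 1.08 and 3.62, and another from -1339 to -840 bp with 1.4 and 3.25. Each was the stronger in 1 library: the upstream one in replicate 1 and the one over the TSS in replicate 2. The gene's highest values were at percentiles 41.5 and 44.5. Hes5 (chr4:154960923-154962371, plus strand) had a single shared DHS from -182 to 217 bp with values of 0.99 and 2.28, at percentiles 19.6 and 26.5. It also overlapped an exon of the transcript Gm20421.

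Both Hes genes carry RBPJ cores close to the TSS, as the printed sequences show. Hes1 has them from -80 to -75 bp and from -66 to -61 bp, and both lay inside the calls of both libraries. No footprint of either library overlapped them: replicate 2 had footprints from -143 to -123, -120 to -112 and -107 to -99 bp upstream of the pair and from -34 to -26 bp downstream of it. Hes5 has cores from -226 to -221 bp, outside the calls of both libraries, and from -82 to -77 bp, inside the call of replicate 2 alone, and again no footprint overlapped either. A CCAAT box (CCAAT or ATTGG, the site of NF-Y) stands just upstream of the core in both genes, from -98 to -94 bp in Hes1 and from -97 to -93 bp in Hes5, also without a footprint. Boxes farther upstream, from -175 to -171 and -147 to -143 bp in Hes1 and from -159 to -155 bp in Hes5, partly overlapped footprints of replicate 2. None of these overlapped a footprint of replicate 1. At Hes5 a footprint of both libraries lay nearer the TSS, from -35 to -25 bp in replicate 1 and from -37 to -23 bp in replicate 2.

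The 10 genes have 14 of the 300-base windows, since Rbpj has 5, some of which overlap. The RBPJ core was in 7 of the 14, at Notch3, Rbpj, Hes1 and Hes5, and in 24.3% of all windows. Most of the 7 were windows of Rbpj, where the same bases were counted for more than 1 TSS. By gene it was 4 of 10, and no share by gene was counted over all genes. The longer GTGGGAA was in 2 of the 14, those of Hes1 and Hes5, against 5.95%. The head-to-head pair of cores (TGGGAA then TTCCCA, 15 to 17 bases apart) was in no member and in 10 of all windows. Over whole promoter DHSs the core occurred 14 times in the members' 16 DHSs. Of these, 7.14% overlapped a footprint in replicate 1, 21.4% in replicate 2 and 0% in both. Over all 14584 shared promoter DHSs there were 4893 cores, with 11.5%, 18.4% and 5.56% under footprints, so a core without a footprint was the usual case throughout the genome. At Rbpj itself the core from -17 to -12 bp overlapped a footprint of replicate 2, from -14 to 3 bp, where replicate 2 had no call. Another core of Rbpj (chr5:53590281-53590286, minus strand) lay inside the calls of both libraries and overlapped a footprint of replicate 1, from 67 to 76 bp, and none of replicate 2. Of the motifs bound by HES repressors, CACNAG was in 5 of the members' 14 windows against 41.5% of all, CACGCG in 5 against 12.3%, and CACGTG in 0 against 7.55%. The windows with CACGCG belonged to 4 genes. For distal DHSs the 300 bases centred on each were searched. These take in flanking bases of shorter DHSs and leave out the ends of longer ones. There CACNAG was in 8 of the members' 16, against 60.2% of all distal shared DHSs. CACGCG was in 5 against 7.41%, and CACGTG in 4 against 6.57%. Both of these motifs contain CpG, and the median CpG ratio of the promoters was 0.799 for the members and 0.606 for all genes. No share among CpG-rich windows or CpG-rich distal DHSs was counted. The counts of these motifs are therefore not read as a trait of the members. All motifs were searched on both strands, and a core can overlap the longer form. A match describes letters, not binding.

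**Figure D2:**
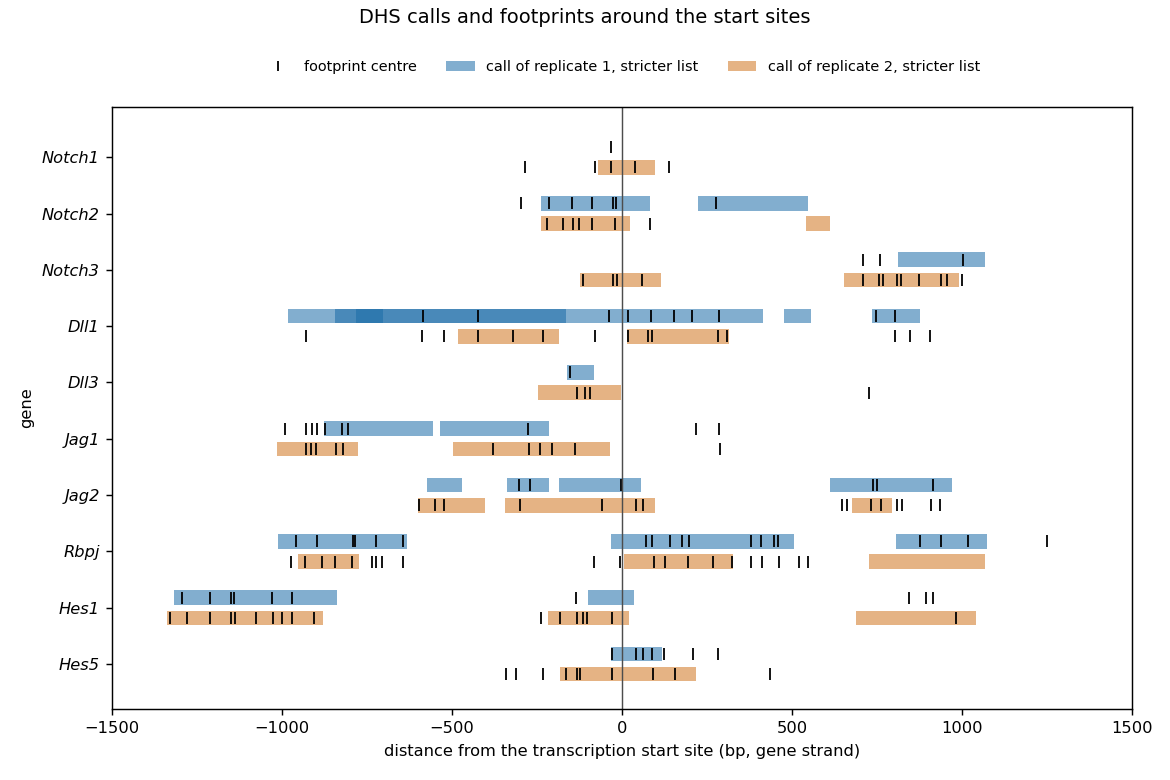
Calls of the stricter list and footprints around the start site of each gene (horizontal axis, bp on the gene's strand; vertical line at the TSS, for Rbpj the first of the main cluster). Blue bars are calls of replicate 1, orange bars those of replicate 2, darker blue marks overlapping calls, and ticks are footprint centres. The wide interval of Dll1 (-984 to 415 bp), the downstream DHS of Notch3 (652 to 1067 bp) and the upstream DHSs of Jag1 stand out.

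Ordered by the mean percentile of the promoter over the libraries, Rbpj was first at 95.3, followed by Notch2 at 70.6, Hes1 at 43, Notch3 at 36.7, Jag1 at 33.6, Dll1 at 27.3, Jag2 at 23.9, Hes5 at 23.1 and Dll3 at 12. Notch1 has no rank in replicate 1. The percentiles of the libraries lay 1.41 to 16.4 apart, with Jag2 the widest and Notch2 the closest, while over the 12272 genes called in both the median gap was 7.2. Rbpj and Notch2 were each above the next gene in both libraries by ranges that did not overlap. Hes1, at 41.5 to 44.5, lay above Notch3 by less than that median gap, so these genes are not separated. The values of Hes1 also came from a different DHS in each library. From Notch3 down to Hes5 the ranges of neighbours overlapped, as 33.4 to 40 for Notch3 and 29 to 38.1 for Jag1 do, so their order is not separated from the gap between libraries. Dll3, at 7.51 to 16.5, lay under Hes5, at 19.6 to 26.5, by less than that median gap, and overlapped Jag2, at 15.7 to 32.1.

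The number of footprints in the members' promoter DHSs was that of promoters in general. Replicate 1 had 8.82 per kb and replicate 2 had 12.9, against 8.78 and 12.9 over all shared promoter DHSs. Footprints of both libraries overlapped 39 times in 7.14 kb of DHS, which was 61.9% of those of replicate 1, against 59.2% genome-wide. Among the roles, ligand promoters had 6.39 and 10.8 per kb, receptors 8.01 and 13.3, targets 11.3 and 18.2, and Rbpj 14.2 and 13.4. The ligands as a group were lowest in both libraries, but single genes crossed that order. Notch2, with a high signal value, had 8.47 per kb in each library, in replicate 2 below all 4 ligands, and Hes5, with a low one, had 15 per kb in each.

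Beyond the promoters, the 10 windows held 44 shared DHSs. Of these, 16 were at the members' own promoters, 12 at promoters of other genes and 16 distal. A distal shared DHS was present for 8 of 10 members, against 54.3% of all genes, and in the lenient list for 10 of 10, against 70.6%. The median per window was 1 for the members and 1 for all genes, and the means were 1.6 and 1.12. Notch3 and Jag2 had 4 each, Dll3 and Hes1 had 2 each, Notch1, Notch2, Jag1 and Hes5 had 1 each, and Dll1 and Rbpj had 0. Counted per 100 kb of window, Jag2 had 3.28 and Notch3 had 2.74, at percentiles 96.2 and 93.4 of all genes. Of the 12 DHSs at promoters of other genes, 6 were in the Dll3 window, at Eid2, Eid2b, Timm50, Supt5 and Rps16. There the Rps16 promoter had values of 2.48 and 10.3 beside the 0.71 and 1.62 of Dll3 itself. The nearest protein-coding TSS was the member's own for 8 of the 16. Which gene a distal DHS acts on was not measured.

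**Figure D3:**
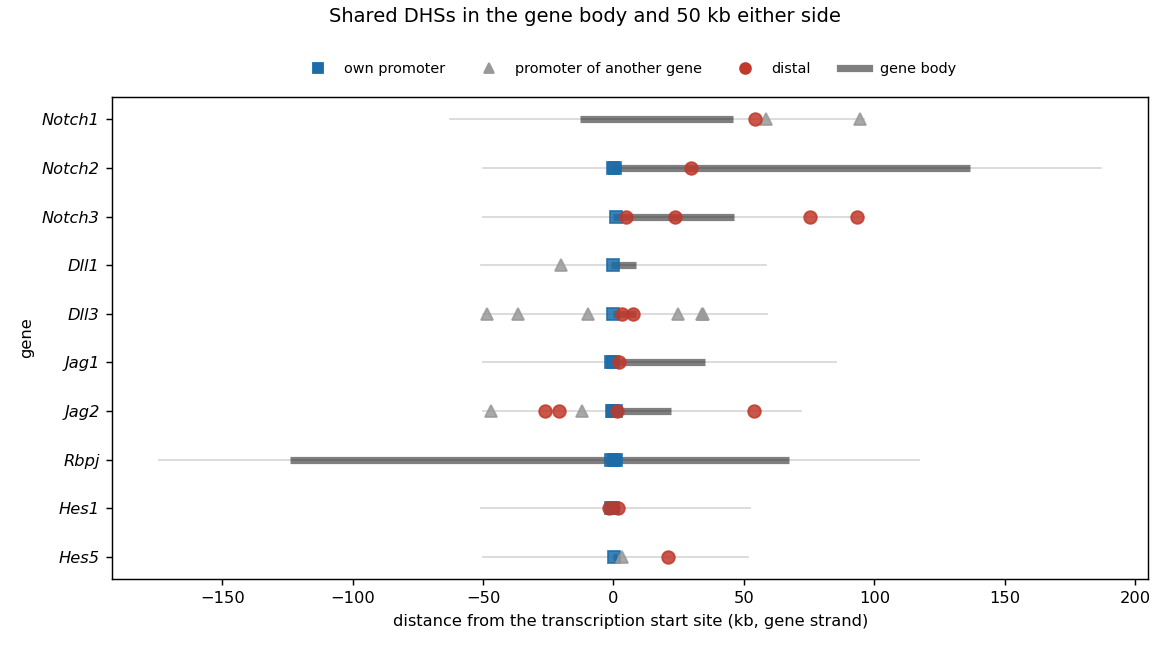
Shared DHSs in the window of each gene (horizontal axis, kb from the TSS on the gene's strand). The thick bar is the gene body, the thin line the 50 kb either side, squares are DHSs at the gene's own promoter, triangles those at other promoters and circles distal ones. The 16 circles include 4 each for Notch3 and Jag2 and none for Dll1 or Rbpj.

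The distal DHSs with the highest mean rank in 4 of the windows show what kinds of element these are. They are printed on the plus strand of GRCm38 (RefSeq), and capitals mark bases that lie in footprints of both libraries. The DHS in the Jag2 window (chr12:112950321-112950680, of which the central 300 bases, chr12:112950351-112950650, are shown) lies upstream of Jag2, from -20904 to -20545 bp, in an exon of the lincRNA Gm26583, and Nudt14 is the nearer gene. The one at Hes1 (chr16:30067021-30067300) is inside the coding exon, from 1681 to 1960 bp. The one in the Notch1 window (chr2:26449546-26449740) is in an intron of 0610009E02Rik, 54082 to 54276 bp downstream of the Notch1 TSS and 4330 bp from that of Sec16a. The one at Notch3 (chr17:32162161-32162340) is in an intron of Notch3, from 4512 to 4691 bp.
Jag2 window: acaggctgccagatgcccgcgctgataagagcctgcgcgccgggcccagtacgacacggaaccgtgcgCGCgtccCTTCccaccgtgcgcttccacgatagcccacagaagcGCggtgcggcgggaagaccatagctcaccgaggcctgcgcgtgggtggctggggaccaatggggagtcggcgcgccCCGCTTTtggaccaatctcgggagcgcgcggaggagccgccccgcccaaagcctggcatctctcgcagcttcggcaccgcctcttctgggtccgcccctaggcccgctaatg
Hes1 coding exon: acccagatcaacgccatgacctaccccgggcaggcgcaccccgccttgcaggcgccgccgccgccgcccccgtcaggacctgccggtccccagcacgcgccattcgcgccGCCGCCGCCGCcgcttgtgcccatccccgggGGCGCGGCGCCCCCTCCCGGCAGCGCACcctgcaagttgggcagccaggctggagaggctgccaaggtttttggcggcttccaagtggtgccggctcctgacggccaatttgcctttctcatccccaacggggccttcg
Notch1 window: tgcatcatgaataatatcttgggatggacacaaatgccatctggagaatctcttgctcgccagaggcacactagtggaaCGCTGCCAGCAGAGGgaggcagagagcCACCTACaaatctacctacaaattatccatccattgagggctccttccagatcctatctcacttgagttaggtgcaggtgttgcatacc
Notch3 intron: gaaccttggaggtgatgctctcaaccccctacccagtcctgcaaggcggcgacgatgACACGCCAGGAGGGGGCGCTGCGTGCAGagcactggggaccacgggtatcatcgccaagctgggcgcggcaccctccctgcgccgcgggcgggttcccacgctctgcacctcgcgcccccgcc

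The DHS upstream of Jag2 had the highest values of the 16, 1.89 in replicate 1 and 5.18 in replicate 2, at percentiles 92 and 95 among distal DHSs. It held 4 footprints in replicate 1 and 10 in replicate 2, of which 3 were common, and these share only short stretches of bases. The Hes1 exon followed with 1.7 and 3.63, at percentiles 87.6 and 86.8. Its widest common footprint covered bases 142 to 169 of the printed sequence in replicate 1 and 142 to 170 in replicate 2. Another DHS of the Jag2 window, not printed, came next with 1.48 and 3.1, at percentiles 81.4 and 81.1. The Notch1 window DHS had 1.33 and 2.83, at percentiles 75.1 and 76.9. The Notch3 intron had 1.25 and 2.81, at percentiles 70.8 and 76.7, and its common footprint covered bases 58 to 87 in replicate 1 and 58 to 85 in replicate 2.

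These protected stretches in the Notch1 window and the Notch3 intron carry a match to the CTCF consensus, the site of the architectural protein CTCF. In the 300 bases centred on each DHS, a match with up to 1 mismatch was found for 6 of the 16 distal DHSs. They lay in the windows of Notch1, Notch3, Jag2 and Hes5, and the share over all distal shared DHSs was 45.8%. All 6 matches overlapped footprints in both libraries. Over all distal DHSs 90.1% of 5672 matches did so too, so the members are like the rest in this. Without a mismatch, the same 300 bases held the consensus for 2 of 16, against 18.8%. The RBPJ core was in them for 7 of the 16 distal DHSs, against 28.4% of all. Inside the DHSs themselves there were 7 matches to the core, and 14.3% of these lay under footprints of both libraries, against 10.4%.

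The other distal DHSs named for their genes were weaker. The one in the coding exon of Dll3 from 7301 to 7697 bp had values of 1.03 and 2.27. The Jag1 intron from 2012 to 2403 bp had 1.16 and 2.76 and the intergenic DHS in the Hes5 window from 20691 to 20847 bp had 1.01 and 2.49. The Notch2 intron from 29443 to 29693 bp was lowest, with 0.658 and 1.14, at percentiles 18.3 and 22.

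Calls made in replicate 1 alone were many in the windows of Dll1 and Dll3. The Dll1 window held 52 distal calls in replicate 1 and 1 in replicate 2, and the Dll3 window held 20 and 2. The 52 calls of Dll1 had values from 0.0747 to 0.649, with a median of 0.142, and 1 of them overlapped a call of the lenient list of replicate 2. Of the 20 at Dll3, with values from 0.0794 to 1.03 and a median of 0.112, 2 overlapped it. Windows with at least 20 distal calls were 3.47% of all genes in replicate 1 and 0.675% in replicate 2, and 2 members were among them in replicate 1 and 0 in replicate 2. Fewer such calls were seen in other windows. Of the distal calls of replicate 1, 1 of 6 at Jag1, 1 of 3 at Notch2 and 4 of 7 at Jag2 overlapped the lenient list of replicate 2. At Notch3 the imbalance ran the other way, with 4 distal calls in replicate 1 and 11 in replicate 2, and 10 of those 11 overlapped the lenient list of replicate 1. Over the 10 windows, distal calls numbered 99 in replicate 1 and 38 in replicate 2. The share of all distal calls that overlap the lenient list of the other library was not counted. These overlaps are therefore not read as particular to the members' windows.

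**Figure D4:**
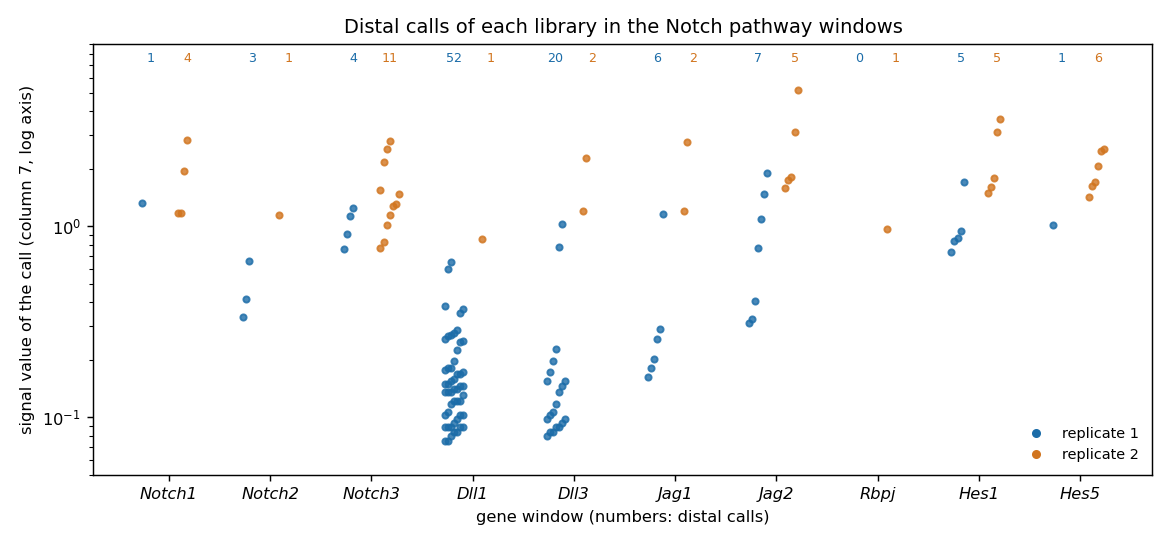
Signal values of all distal calls in each window (vertical axis, authors' scale, log axis), with replicate 1 in blue and replicate 2 in orange and the number of calls printed above. The 52 calls of replicate 1 at Dll1 and most of its 20 at Dll3 form columns of low values that replicate 2 lacks.

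Of 50 other genes of the pathway, taken from a fixed list by role, 42 had a shared promoter DHS, against 55.7% of all genes. Among all genes with CpG-rich promoters the share was 90.4%, and the CpG-rich genes among these 50 were not counted. The count is therefore not read as a trait of the pathway. The same shares stand beside the counts by role below. All 9 genes of the sheddases and gamma-secretase, which cut the receptor, had one, with medians of 1.86 and 6.54. Adam10, the sheddase of Notch, was highest there with 2.56 and 10.2. All 12 coactivators and corepressors had one, with medians of 1.46 and 5.02, and Maml1, a Mastermind coactivator, had the highest mean percentile with values of 2.51 and 8. In replicate 2 the acetyltransferase gene Ep300 was higher with 9.09. Of the 12 genes of ligand and receptor trafficking and turnover 11 had one, led by Fbxw7, a ubiquitin ligase component that targets the Notch intracellular domain, with 3.23 and 12.7. Dtx3 had no call in either library.

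Of 5 glycosyltransferases, which modify the receptor, 4 had a shared promoter DHS. Pofut1, the O-fucosyltransferase, had the highest mean percentile, with values of 1.59 and 3.49, and in replicate 2 Poglut1 was slightly higher with 3.54. Of 7 other target genes, 4 had one, led by Hey2, a HES-related repressor, with 2.99 and 8.69, while Hes3, Hes7 and Heyl had no call in either library. The count was 2 of 5 for other receptors and ligands, led by Dlk2 with 1.86 and 3.8, and Dlk1, Dll4 and Notch4 had no call. Dll4 and Notch4 are best known from endothelium, 2 of whose 7 markers had a shared promoter DHS. These were Flt1, with 0.789 and 0.945, and Sox17, with 0.476 and 0.654. Kdr had promoter calls of 0.542 and 0.583 that were shared only in the lenient list, and Cdh5 had a call of 0.416 in replicate 1 alone. Pecam1, Tek and Cldn5 had no promoter call in either library. The part of endothelial cells in these values was not tested. In the lenient lists Dll4 and Heyl had a shared promoter DHS. The cutting enzymes all ranked above the all-gene median in both libraries, while all 4 member ligands ranked below it. In the list of other receptors and ligands, Dlk2 was at percentiles 64.9 and 46.5 and Dner at 37.1 and 31.4. The reason for this difference between lists was not tested.

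**Figure D5:**
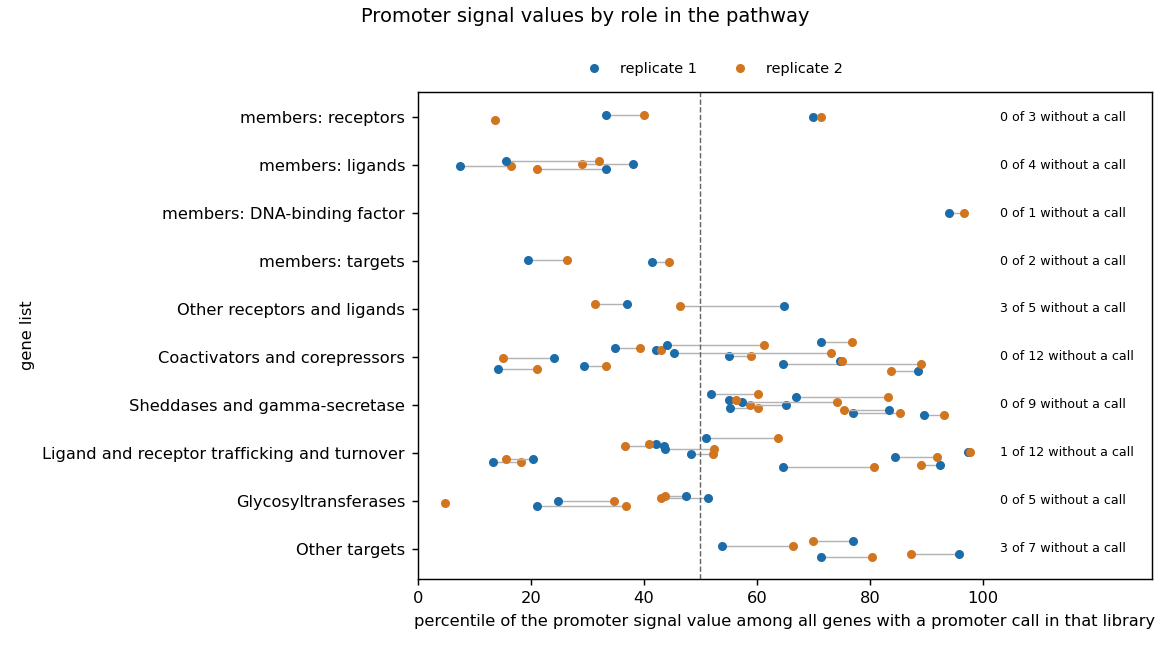
Percentile of the promoter signal value within each library (horizontal axis) for the members by role and for 50 other pathway genes by list. Each pair of joined points is 1 gene in replicate 1 (blue) and replicate 2 (orange), a lone point is a gene called in 1 library, and the dashed line marks the all-gene median. All 9 sheddase and gamma-secretase genes lie right of the line in both libraries, and all 4 member ligands left of it.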

How the data were processed

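DNase-seq files of 2 libraries were used, all in mm10 and, per the file headers, made separately for each library. Which aligner and which callers made them, and with which settings, is not given in the sources used here. Peak lists of the authors give a signal value per call (column 7), whose scaling is not stated; in each library the values tested were whole multiples of a step (0.00467 and 0.007877). The deposited cut-rate files list false discovery rates (q-values) under 0.05 per run of bases. The deposited footprint files carry 0.01, taken as a threshold, on every line. The stricter list, whose calls each contained at least 1 base below a rate of 0.001, was used throughout, with the lenient list as an alternative. No read depth was used, so precision rests on the gap between the libraries.

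Promoters, distal DHSs and windows were defined with GENCODE M21 basic protein-coding transcripts on GRCm38. Where calls overlapped by 1 bp or more, their union was a shared DHS, and its signal value in a library is the highest of its calls. Footprints were common where those of both libraries overlapped. Percentiles rank each gene's highest promoter value within its library. Genes and DHSs are not replicates, the 2 libraries form 1 group, and no test was made. The calculation was tested on simulated data with planted calls and motifs. Of the members, 9 have an entry in the RefSeq promoter table, and all 11 of their entries were identical to the genome sequence. Python 3.11.15 with numpy 2.4.6, pandas 2.3.3 and matplotlib 3.10.9 was used.

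The members, the gene and marker lists and the motifs were chosen with earlier results of these data known. Named were all members, in each list of other pathway genes the gene with the highest mean percentile and up to 3 genes without a call in either library, and for each member the distal DHS with the highest mean rank, with the 4 highest printed. The CTCF search with a mismatch, the split by CpG, the counts of bases under a false discovery rate, of DHSs over a TSS base and of windows with 20 or more distal calls were chosen after the values were seen. Alternatives were the lenient list, other promoter windows and flanks, the stronger 50% of calls, reciprocal overlap of 50%, start sites of all transcripts, and each library alone.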

Additional observations from a re-analysis of the deposited data

How the results depend on the processing

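With promoter windows of 0.5 and 2.5 kb, the lenient list, the stronger 50% of calls, reciprocal overlap of 50%, start sites of all transcripts and each library alone, 6 to 10 of the 10 genes had a promoter DHS. The lowest count came from reciprocal overlap, which lost Dll1, Dll3 and Hes5, and 0.5 kb lost Notch3 and left 8. The 42 other pathway genes stayed between 35 and 45. The 16 distal DHSs became 39 with the lenient list, 28 with promoters of other genes counted, 8 by nearest TSS alone, and 38 to 99 leaving out a library. The 39 common footprints became 22 with 0.5 kb, 24 with reciprocal overlap of 50% and 57 to 78 in a single library. The all-gene promoter share of 55.7% became 61.5% (lenient), 50.7% (stronger 50%), 45.1% (reciprocal) and 57 to 60.2% leaving out a library. The all-gene distal share of 54.3% became 70.6% (lenient), 44% (stronger 50%), 37.4% (20 kb flank), 68.9% (100 kb flank), 73.6% (other promoters counted), 26.9% (nearest TSS alone) and 62.1 to 69.2% leaving out a library. The cause of these shifts was not tested, beyond the fewer or more DHSs that each setting counts. No paired analysis was possible because the samples form 1 group. With 2 libraries and no stated depth, a missing call marks a signal under the authors' limit, not closed chromatin.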

Other observations

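The ratio of the promoter signal value of replicate 2 to that of replicate 1 had a median of 2.74 over all genes called in both, with quartiles of 2.13 and 3.45. Since the scaling is not stated, only its rank among genes is of use. Rbpj had a ratio of 4.2, at percentile 91.1, and Dll1 had 1.52, at percentile 6.04. Jag1, with 1.84 at percentile 14.8, was the next lowest of the 9 members called in both libraries. Notch2, Notch3, Dll3, Jag2, Hes1 and Hes5 lay between percentiles 31.2 and 66.2.

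Hes1 had a call in replicate 2 from 689 to 1040 bp, with a value of 1.2, which replicate 1 lacked in the stricter list. Replicate 1 had footprints from 842 to 848, 891 to 900 and 912 to 918 bp in that interval, and replicate 2 had 1 from 979 to 985 bp. The lenient list of replicate 1 held an overlapping call of 0.719 from 781 to 1200 bp. At Notch1, replicate 2 had 3 distal calls inside the gene. They were of 1.94 from 2782 to 2961 bp and of 1.18 from 15902 to 15961 bp and from 16234 to 16381 bp. None of the 3 had a counterpart in the stricter list of replicate 1. Of all 4 distal calls of replicate 2 in the Notch1 window, 2 overlapped the lenient list of replicate 1. Among the other pathway genes, Maml3 had 12 distal shared DHSs in its window and Spen had 9, the highest counts of the 50. The all-gene median was 1. The window includes the gene body, so it is longer for longer genes, and these counts are not per 100 kb.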
